A study of Homo sapiens with 8 samples.

Results

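The genes described here are 10 regulators of the G1 phase of the cell cycle: CDK6, CDK4, CCND1, CCND2, CCND3, CCNE1, CDKN1B, CDKN2C, RB1 and E2F1. They were chosen by gene symbol, and the brightest transcript cluster (a group of probes that reports 1 gene) stood for each symbol. In all, 9 of the 10 were read, each by 1 cluster, out of 17687 genes with a symbol. CDKN2C, an inhibitor of CDK4 and CDK6, was not analysed here. The study profiled 8 xenograft tumours of the human ovarian cancer line SK-OV-3, 1 Affymetrix array for each tumour, with nude mice as hosts. In 4 tumours (BORA) the implanted cells carried the vector pIND_BORA for overexpression of BORA, the activator of Aurora A that helps switch on the mitotic kinase PLK1. In the other 4 (EV) the cells carried the empty vector pIND_EV. All 8 tumours shared the cell line and the host, a mouse without a functional thymus. The labels give no age, no inducing agent, and no statement on how many animals or transfected cell pools were used. The p-values therefore cover only the spread among these 8 arrays, part of which may be technical.

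Cells commit to division in G1. D-type cyclins accumulate after growth signals and activate CDK4 and CDK6, which phosphorylate the retinoblastoma protein RB1; cyclin E with CDK2 adds to this phosphorylation. RB1 then releases E2F transcription factors, which switch on genes of DNA replication, cyclin E among them. Inhibitors of the INK4 family bind CDK4 and CDK6, while those of the CIP/KIP family, such as the product of CDKN1B, bind cyclin and kinase together.

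The BORA transcript was at 12.55 to 13.00 in BORA tumours and at 6.15 to 7.32 in EV tumours on the log2 signal scale, so no label was contradicted. Carcinoma markers were present: 7 of 8 fixed markers were measured, EPCAM, KRT8 and PAX8 among them, and all 7 exceeded the negative controls in both groups. The upper limit set by the negative controls, their 95th percentile, lay between 7.62 and 8.24 on the 8 arrays; values above it are called clear signals below. CDK4, CCND1, CCND3 and RB1 exceeded it on all 8 arrays. CCND2 and E2F1 exceeded it on none, and CDK6, CCNE1 and CDKN1B on some, so the sizes of differences of these 5 genes are uncertain. EV replicate 1 stood apart: it correlated with the other arrays at 0.943 to 0.954 over all clusters, while the other 7 correlated with each other at 0.981 to 0.992. Every comparison is therefore given over 8 arrays and again over the 7 without it.

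CDK6 had the smallest p of the 9 regulators and higher values in every BORA tumour than in any EV tumour, and CCND2 had lower values in every BORA tumour. Neither passed the test across all genes. With limma's adjusted p held under 0.05, 0 of the 9 regulators passed over 8 arrays and 0 over 7. The background was low as well: 0.102% of all 17709 clusters passed over 8 arrays and 0.514% over 7. At an unadjusted p under 0.05, CDK6 and E2F1 were higher and CCND2 lower in both sets of arrays, 3 of 9 against 14.5% of all clusters over 8 arrays and 15.3% over 7. The groups did not overlap for CDK6 and CCND2, 2 of 9, where 9.36% of all clusters did not overlap over 8 arrays and 14.3% over 7. The median log2 difference of the 9, BORA minus EV, was 0.31 over 8 arrays and 0.11 over 7, beside -0.026 and -0.029 over all clusters. The median lay at 0.49 over 8 arrays without EV replicate 3 and at 0.19 without BORA replicate 1. After quantile normalization it was 0.19 over 8 arrays and 0.030 over 7.

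**Figure D1:**
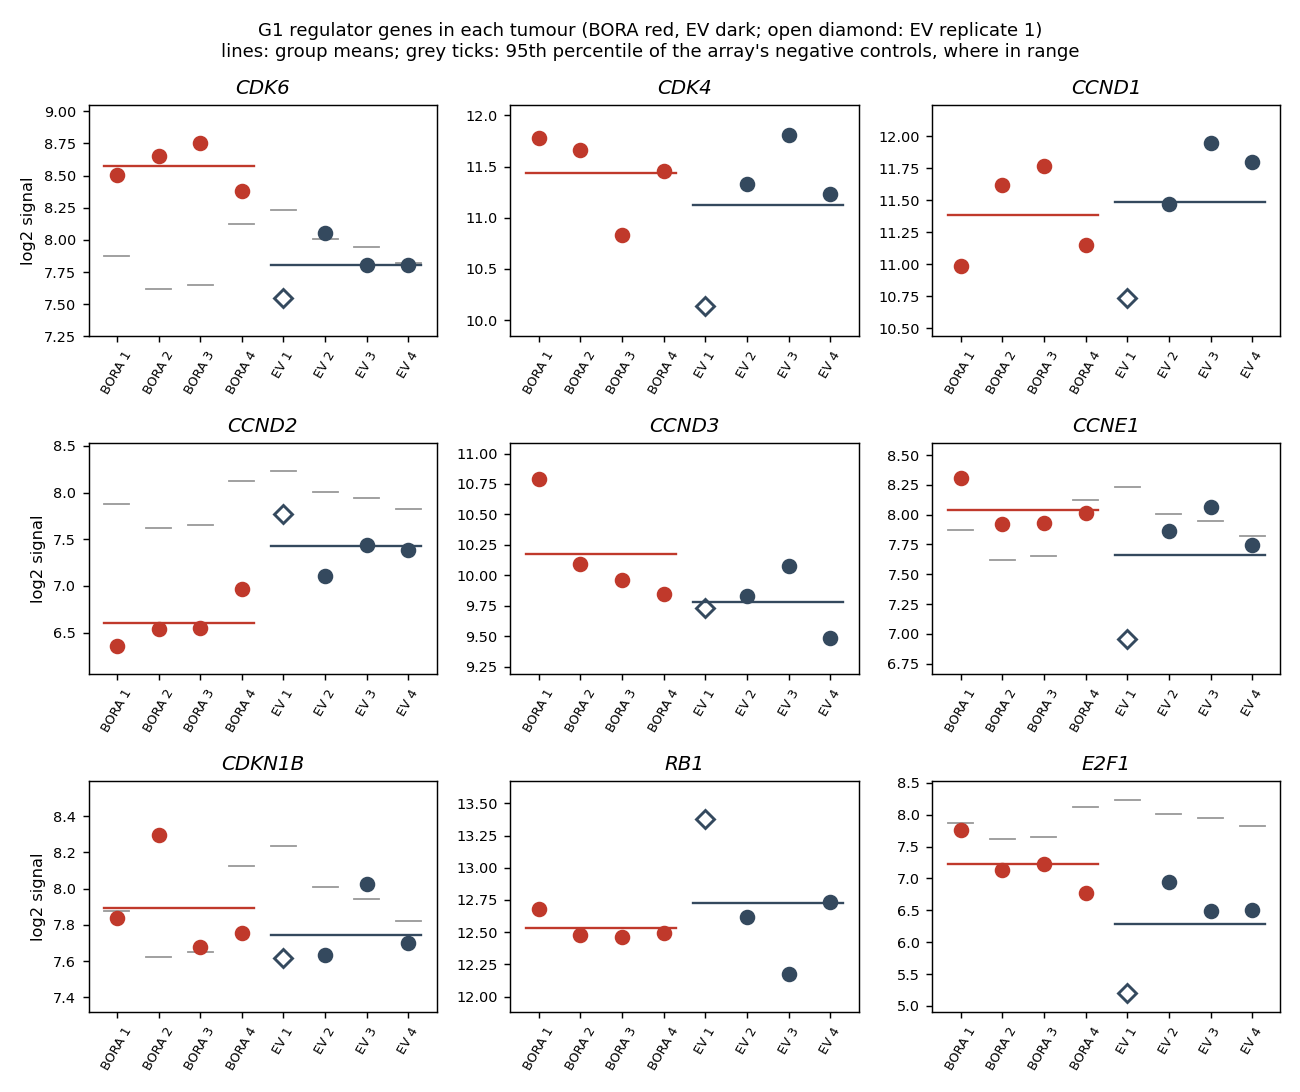
Log2 signal (vertical axes, one scale per gene, not starting at 0) of the 9 measured regulators in each BORA tumour (red) and each EV tumour (dark), with group means as lines and the negative control percentile of each array as grey ticks. All 4 CDK6 values of BORA tumours (8.38 to 8.75) lie above all 4 of EV tumours (7.55 to 8.06), the order is turned for CCND2, and the open diamond of EV replicate 1 is the lowest point for CDK6, CDK4, CCND1, CCNE1, CDKN1B and E2F1.

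CDK6 encodes one of the 2 kinases that D-type cyclins activate. Its log2 signals were 8.51, 8.65, 8.75 and 8.38 in BORA replicates 1 to 4, against 7.55, 8.06, 7.80 and 7.80 in EV replicates 1 to 4. The lowest BORA tumour lay 0.32 above the highest EV tumour. All 4 BORA values exceeded the negative control percentile of their array, and 1 of the 4 EV values did, that of EV replicate 2. The mean was 8.57 ± 0.16 in BORA tumours and 7.80 ± 0.21 in EV tumours (SD, n = 4 each), a log2 difference of 0.77 (SE 0.16, limma adjusted p = 0.129), or 1.70-fold with a 95% interval of 1.33 to 2.18. Over 7 arrays the difference was 0.68 (SE 0.17, limma adjusted p = 0.101), 1.61-fold. A two-sided exact permutation test gave p = 0.0286 over 8 arrays and over 7, the smallest value it allows in each. Over 8 arrays groups without overlap always reach this value, so it adds nothing to the separation stated above. Over 7 arrays the groups differ in size, and groups without overlap need not reach it. The test covers CDK6 alone, without adjustment over genes. Since 3 of the EV values were below the clear signal limit, the size of the fold is uncertain.

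The upstream window of CDK6 is shown because this gene had the clearest separation. That of E2F1, the last of the regulators described, is shown because among the windows searched it alone held a match to an E2F motif. Both are RefSeq windows of 250 bases ending at the base before an annotated start, on GRCh38.p14, 5′ to 3′ on the minus strand. CDK6, with 2 annotated starts, is given at the first, chr7:92836574-92836823, and E2F1 at chr20:33686386-33686635. Capitals mark matches to any of 4 motifs, TTTGGCGC, TTTCGCGC, TTTCCCGC and TTTGCCGC, searched on both strands.
CDK6: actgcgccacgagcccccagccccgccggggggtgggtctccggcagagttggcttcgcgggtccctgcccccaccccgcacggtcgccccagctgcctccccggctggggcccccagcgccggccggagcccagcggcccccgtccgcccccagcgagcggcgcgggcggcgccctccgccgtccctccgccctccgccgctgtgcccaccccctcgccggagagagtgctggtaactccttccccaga
E2F1: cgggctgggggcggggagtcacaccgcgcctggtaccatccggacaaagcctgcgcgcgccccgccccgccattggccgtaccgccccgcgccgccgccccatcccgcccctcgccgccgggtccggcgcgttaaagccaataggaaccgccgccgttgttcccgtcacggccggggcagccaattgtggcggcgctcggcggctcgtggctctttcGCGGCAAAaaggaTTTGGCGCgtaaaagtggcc
E2F1 held 2 matches that do not overlap, TTTGCCGC on the reverse strand beginning 33 bases before the start and TTTGGCGC on the forward strand beginning 20 bases before it. CDK6 held 0 at either start. Windows were found for 8 of the 10 genes, with 13 starts in all, and for neither CCND1 nor CCND2. Of the 13, 1 start held a match, beside 2.79% of all 35116 windows of this length. RB1 had 1 window, chr13:48476200-48476449, and whether it lies at the main start of that gene was not checked. Other upstream sequence of the regulators was not searched. The E2F1 matches describe letters in the window and show no binding.

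CDK4, the partner kinase of CDK6, overlapped between the groups. Its log2 signals were 11.78, 11.66, 10.83 and 11.46 in BORA replicates 1 to 4, against 10.14, 11.33, 11.80 and 11.23 in EV replicates 1 to 4. EV replicate 1 was the lowest of all 8, and the other 3 EV tumours lay inside the BORA range or just above it. The difference, BORA minus EV, was 0.31 on the log2 scale over 8 arrays (SE 0.35, limma adjusted p = 0.700), with a 95% interval of -0.47 to 1.08. Over 7 arrays it was -0.022 (SE 0.24, interval -0.56 to 0.51). So the sign of CDK4 rested on EV replicate 1, while that of CDK6 did not.

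None of the 3 D-type cyclin genes passed the test. CCND1, like CCND3, had a clear signal in all tumours and is a common target of mitogen signalling. CCND1 was at 10.99, 11.62, 11.77 and 11.15 in BORA replicates 1 to 4, against 10.73, 11.47, 11.95 and 11.80 in EV replicates 1 to 4. The groups overlapped. Its log2 difference was -0.11 over 8 arrays (SE 0.29, limma adjusted p = 0.881) and -0.36 over 7 (SE 0.22, adjusted p = 0.480), and the intervals, -0.75 to 0.53 and -0.85 to 0.13, include 0.

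CCND2, the gene of cyclin D2, had lower values in every BORA tumour than in any EV tumour. They were 6.35, 6.54, 6.54 and 6.97 in BORA replicates 1 to 4, against 7.77, 7.11, 7.44 and 7.39 in EV replicates 1 to 4. All 8 values lay below the negative control percentile of their arrays, so no fold is given. BORA minus EV came to -0.82 on the log2 scale over 8 arrays (SE 0.19, limma adjusted p = 0.152) and -0.71 over 7 (SE 0.19, adjusted p = 0.123). The gap between the groups was 0.13, smaller than either SD (0.26 in BORA tumours and 0.27 in EV tumours).

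CCND3, the gene of cyclin D3, had a clear signal in all tumours. It was at 10.79, 10.10, 9.96 and 9.85 in BORA replicates 1 to 4, against 9.73, 9.83, 10.08 and 9.49 in EV replicates 1 to 4. BORA replicate 1 was the highest, and the other BORA tumours lay within or close to the EV range. The log2 difference was 0.39 over 8 arrays (SE 0.23, limma adjusted p = 0.454) and 0.37 over 7 (SE 0.24, adjusted p = 0.499). Without BORA replicate 1 it was 0.19 over 8 arrays.

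CCNE1 encodes cyclin E1, the partner of CDK2 late in G1. Its log2 signals were 8.30, 7.92, 7.93 and 8.02 in BORA replicates 1 to 4, against 6.96, 7.87, 8.07 and 7.75 in EV replicates 1 to 4. EV replicate 1 was the lowest by far, and the other EV tumours came close to or inside the BORA range. Its log2 difference was 0.38 over 8 arrays (SE 0.24, limma adjusted p = 0.482) and 0.15 over 7 (SE 0.17, adjusted p = 0.723). The values exceeded the negative control percentile on 3 BORA arrays and 1 EV array.

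CDKN1B encodes p27, a CIP/KIP inhibitor of cyclin E with CDK2. It was at 7.84, 8.30, 7.68 and 7.75 in BORA replicates 1 to 4, against 7.62, 7.63, 8.02 and 7.70 in EV replicates 1 to 4. It varied least of the 9 regulators, by 0.68 between the lowest and the highest array, and the groups overlapped. The log2 difference was 0.15 over 8 arrays (SE 0.18, limma adjusted p = 0.724) and 0.11 over 7 (SE 0.20, adjusted p = 0.838). Over 8 arrays it was 0.012 without BORA replicate 2 and 0.24 without EV replicate 3. It exceeded the negative control percentile on 2 BORA arrays and 1 EV array.

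RB1, the pocket protein gene that restrains E2F, had values of 12.68, 12.47, 12.46 and 12.50 in BORA replicates 1 to 4, against 13.38, 12.62, 12.18 and 12.73 in EV replicates 1 to 4. BORA tumours lay close together (SD 0.10, against 0.50 in EV tumours), and EV tumours lay on both sides of them, with EV replicate 1 the highest. Between the group means the log2 difference was -0.20 over 8 arrays (SE 0.23, limma adjusted p = 0.716) and 0.019 over 7 (SE 0.18, interval -0.37 to 0.41).

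E2F1, the gene of an activating E2F factor that RB1 binds, had no clear signal on any array. It was at 7.77, 7.13, 7.22 and 6.77 in BORA replicates 1 to 4, against 5.20, 6.94, 6.49 and 6.50 in EV replicates 1 to 4. BORA replicate 4 lay below EV replicate 2, so the groups overlapped, and EV replicate 1 was lowest. A log2 difference of 0.94 was found over 8 arrays (SE 0.36, interval 0.13 to 1.75, limma adjusted p = 0.294) and 0.58 over 7 (SE 0.23, interval 0.063 to 1.10, adjusted p = 0.274). All 8 values lay below the negative control percentile, so no fold is given.

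**Figure D2:**
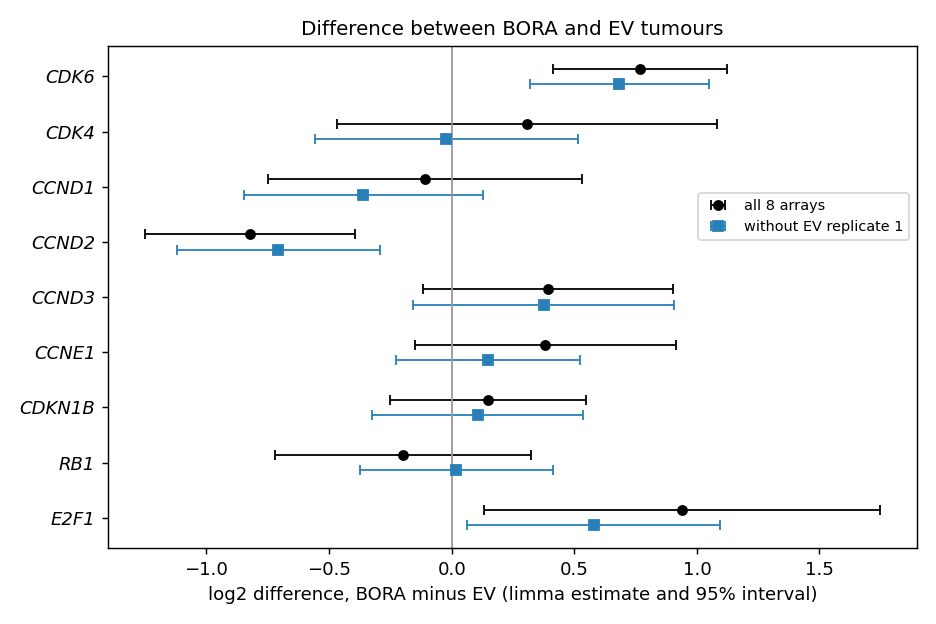
Log2 difference, BORA minus EV (horizontal axis), of the 9 regulators with 95% intervals from limma, over 8 arrays (black circles) and without EV replicate 1 (blue squares). The intervals of CDK6 (0.41 to 1.12 and 0.32 to 1.05), CCND2 and E2F1 exclude 0 before adjustment over all genes, and those of the other 6 include it.

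The wider G1 pathway was described through 11 lists of related genes with 83 genes, of which 81 were measured. Besides the 9 regulators these held 72 measured genes, and limma called 0 of the 72 over 8 arrays and 0 over 7 at the adjusted threshold of 0.05. At an unadjusted p under 0.05, 1 was higher and 1 lower over 8 arrays, 2.78% of the 72 beside 14.5% of all clusters; the same 2, E2F4 and LIN52, were those whose groups did not overlap, beside 9.36% of all clusters. Over 7 arrays 4 were higher and 2 lower, 8.33% beside 15.3%. Groups without overlap over 7 arrays were found for 3 higher and 1 lower, 5.56% beside 14.3% of all clusters.

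Among the E2F and DP factors, 0 of 10 passed, and the median log2 difference was 0.22 over 8 arrays and 0.092 over 7. E2F4, which with pocket proteins mainly represses genes in resting cells, had the smallest p of the non-members over 8 arrays. It was at 10.50, 10.39, 10.73 and 9.97 in BORA replicates 1 to 4, against 9.77, 9.83, 9.72 and 9.65 in EV replicates 1 to 4, without overlap. Its log2 difference was 0.66 over 8 arrays (SE 0.18, limma adjusted p = 0.188) and 0.66 over 7 (SE 0.20, adjusted p = 0.152). TFDP1, the DNA-binding partner of E2F factors, was at 12.05, 12.05, 11.84 and 11.73 in BORA replicates 1 to 4, against 12.07, 11.41, 11.22 and 11.25 in EV replicates 1 to 4. EV replicate 1 was its highest array, and its log2 difference was 0.43 over 8 arrays (limma adjusted p = 0.373) and 0.62 over 7 (adjusted p = 0.119). E2F8, a repressive E2F, was at 1.20 over 8 arrays (SE 0.58) and 0.63 over 7 (SE 0.37).

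In the MuvB core, which joins pocket proteins and E2F4 to repress cell cycle genes, 0 of 5 passed. LIN52, a subunit of it, was at 9.44, 10.03, 9.14 and 9.70 in BORA replicates 1 to 4, against 10.74, 10.19, 10.36 and 10.19 in EV replicates 1 to 4, lower in BORA tumours without overlap. Its log2 difference was -0.79 over 8 arrays (SE 0.22, limma adjusted p = 0.193) and -0.67 over 7 (SE 0.21, adjusted p = 0.179). RBBP4, a histone-binding subunit, was at 0.40 over 8 arrays (SE 0.30) and 0.16 over 7 (SE 0.26).

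None of the measured kinase inhibitor genes passed, over 8 arrays or 7. Of the INK4 genes, 3 of 4 were measured, 0 passed, and CDKN2A, CDKN2B and CDKN2D lay between -0.16 and -0.074 over 8 arrays with the means of both groups below the negative control percentile for all 3. Of the CIP/KIP genes 0 of 3 passed. CDKN1A, the p21 gene, was at 7.58, 8.24, 8.59 and 7.95 in BORA replicates 1 to 4, against 10.05, 8.19, 7.46 and 7.96 in EV replicates 1 to 4. EV replicate 1 was the highest, so the log2 difference was -0.32 over 8 arrays (SE 0.49) and 0.22 over 7 (SE 0.25).

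Of the cyclin E, cyclin A and CDK2 genes 0 of 6 passed, with a median of 0.24 over 8 arrays and 0.079 over 7. CDK2 was at 0.33 and 0.0087. CDC25A, the gene of a phosphatase that activates CDK2, was at 0.37 (SE 0.19) and 0.24 (SE 0.19). Its means, 5.04 in BORA and 4.67 in EV tumours over 8 arrays, lay below the negative controls, so the size of this difference is uncertain. Over 7 arrays CCNA2, the cyclin A2 gene, was at -0.36 (SE 0.23) and CCNA1 at 0.36 (SE 0.25). Over 8 arrays CCNA2 was at 0.039 (SE 0.38) and CCNA1 at -0.12 (SE 0.45). The CDK-activating kinase genes (0 of 3 passed), CDK7 among them, lay between -0.073 and 0.31 in both sets of arrays. The pocket protein genes (0 of 3) lay between -0.26 and 0.077. The ubiquitin ligase factors of G1 (0 of 11) had medians of 0.11 over 8 arrays and 0.024 over 7. CKS1B, a cofactor of the ligase that degrades p27, was at 0.37 over 8 arrays (SE 0.26) and 0.10 over 7 (SE 0.18). FZR1, an activator of the anaphase-promoting complex in G1, was at 0.17 over 8 arrays (SE 0.19) and 0.32 over 7 (SE 0.17). Among transcription factors that respond to growth signals 0 of 11 passed. The AP-1 gene FOSL1 was at 1.45 over 8 arrays (SE 0.71, limma adjusted p = 0.384) and 0.64 over 7 (SE 0.31), and the immediate early gene EGR1 at 0.80 (SE 0.90) and 1.76 (SE 0.50, adjusted p = 0.136). FOXO1, a factor that growth signals keep out of the nucleus, was at 0.38 (SE 0.39) over 8 arrays and 0.77 (SE 0.24, limma adjusted p = 0.178) over 7. MYC was at -0.54 over 8 arrays (SE 0.32) and -0.73 over 7 (SE 0.29, limma adjusted p = 0.266).

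**Figure D3:**
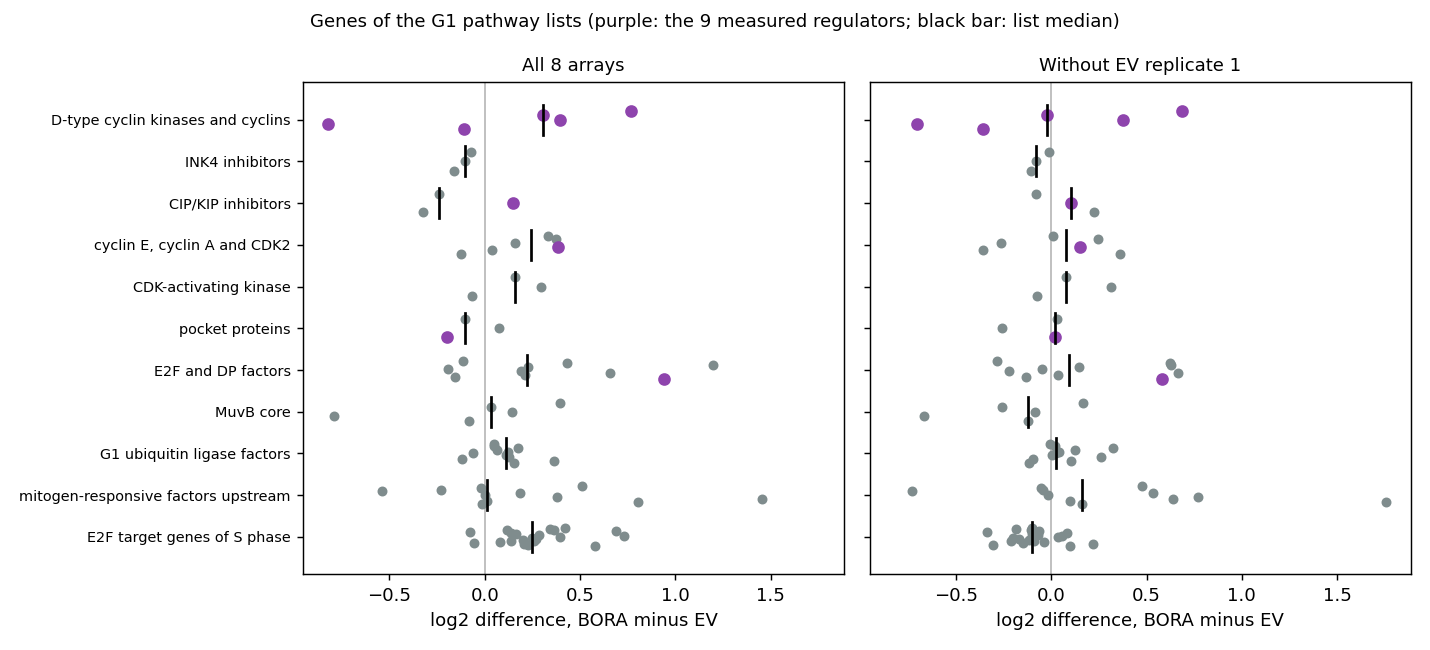
Log2 difference, BORA minus EV (horizontal axis), of each measured gene of the 11 pathway lists (rows), over 8 arrays on the left and without EV replicate 1 on the right; purple points are the 9 regulators and black bars list medians. The median of the E2F target genes lies at 0.25 on the left and at -0.10 on the right, while CDK6, the rightmost purple point of the top row, stays at 0.77 and 0.68.

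E2F target genes of S phase, such as the MCM helicase subunits, RRM2 (ribonucleotide reductase) and MYBL2, turned with EV replicate 1. Of 21 measured targets, 0 passed in either set; 19 had values above 0 and 2 below 0 over 8 arrays, and 5 above and 16 below over 7. Their median log2 difference was 0.25 and -0.10. The replication factor gene CDC45, with the smallest p over 8 arrays, was at 0.58 there (SE 0.47) and at 0.096 over 7 (SE 0.28). RRM1 and CDC6, with the smallest over 7, were at -0.34 (SE 0.25) and -0.30 (SE 0.24). Over 8 arrays RRM1 was at -0.075 (SE 0.31) and CDC6 at 0.23 (SE 0.48). MYBL2, a transcription factor gene chosen as an example after its values were seen, was at 11.17, 10.31, 11.17 and 10.02 in BORA replicates 1 to 4, against 7.93, 10.24, 11.32 and 10.27 in EV replicates 1 to 4. The mean level of the 21 targets in EV replicate 1 was 1.39 log2 units below their mean over the other 7 arrays. On the same scale BORA tumours lay between -0.27 and 0.35 and EV replicates 2 to 4 between -0.039 and 0.19.

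EV replicate 1 was the lowest of the 8 arrays for 18 of the 21 targets and for all 10 of 10 fixed proliferation markers, MKI67 and TOP2A among them. Over all clusters it was the lowest in 22.2% and the highest in 20.6%. Of the 9 regulators it was the lowest for 6 (CDK6, CDK4, CCND1, CCNE1, CDKN1B and E2F1) and the highest for CCND2 and RB1. The carcinoma markers were also low there on average: it was the lowest array for 5 of 7 and the highest for 1, KRT19, at 17.71. Their mean level there relative to the other 7 arrays was -1.29 on the log2 scale. On that scale BORA tumours lay at 0.0042 to 0.094 and EV replicates 2 to 4 at -0.75 to 0.79. Squamous keratinocyte markers moved with this array: the summed log2 signal of 9 measured markers was 115.3 there, against 50.6 to 55.6 in BORA tumours and 52.6 to 56.8 in EV replicates 2 to 4. In group means over 8 arrays 2 of these 9 exceeded the negative controls in BORA and in EV tumours. Without EV replicate 1 the EV count was 1. Over those 7 arrays 4 of the 9 lay above 0 and 5 below, so their sum holds genes that differ in both directions. KRT14 was higher in every BORA tumour there, at 1.35 (SE 0.31, limma adjusted p = 0.0915). S100A8, with means below the negative controls, was lower in every BORA tumour, at -1.22 (SE 0.44, limma adjusted p = 0.224). Both names were picked after their values were seen. In EV replicate 1 itself KRT1, KRT5, KRT10, KRT14, S100A8, SPRR1A and DSG3 exceeded its limit of 8.24, and IVL and LORICRIN did not. The part of keratinocyte markers in the values of CDK4, CCND1, CCNE1, RB1 and E2F1 was not tested. Without this array the log2 differences of CDK6 and CCND2 were 0.68 and -0.71, beside 0.77 and -0.82 with it.

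**Figure D4:**
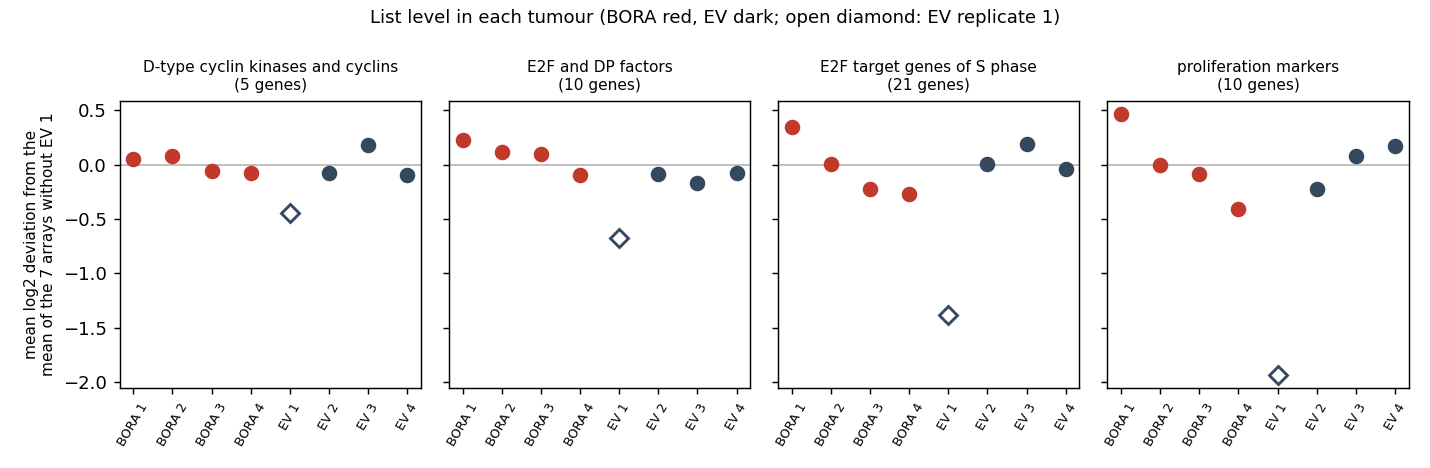
Mean log2 deviation of each list's genes from their mean over the 7 arrays without EV replicate 1 (vertical axis), for each BORA tumour (red) and EV tumour (dark), with EV replicate 1 as an open diamond. EV replicate 1 lies at -0.45 for the D-type cyclins and kinases, -0.67 for E2F and DP factors, -1.39 for E2F targets and -1.94 for proliferation markers, below the other 7 arrays in each.

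Other cell types were followed through fixed marker lists. The summed log2 signal of 5 endothelial markers was 28.3 to 30.5 in BORA tumours and 25.3 to 28.7 in EV tumours, and 1 of the 5 exceeded the negative controls in BORA tumours and 0 in EV tumours. The sum holds genes that differ in both directions. CDH5 and PECAM1, endothelial adhesion genes, were higher in every BORA tumour than in any EV tumour, as CDK6 was: CDH5 by 2.28 on the log2 scale over 8 arrays (SE 0.46, limma adjusted p = 0.129) and 2.09 over 7 (adjusted p = 0.0731), and PECAM1 by 1.56 (SE 0.33, limma adjusted p = 0.137) and 1.34 (adjusted p = 0.0830). These names, and PTPRC, LUM and PDGFRA below, were picked after their values were seen. PECAM1 was the 1 endothelial marker whose BORA mean exceeded the negative controls, at 8.11, against 6.55 in EV tumours. The CDH5 means, 7.72 in BORA and 5.44 in EV tumours, both lay below the negative controls. The sizes of the CDH5 and PECAM1 differences are therefore uncertain. VWF, KDR and TEK lay at -0.33, -0.062 and -0.49 over 8 arrays and at -0.19, -0.092 and -0.58 over 7. For 7 leukocyte markers the summed log2 signal was 47.0 to 50.0 in BORA tumours and 46.4 to 54.6 in EV tumours. PTPRC, the CD45 gene of leukocytes, was at 10.83, 9.68, 10.96 and 10.09 in BORA replicates 1 to 4, against 6.91, 12.19, 12.24 and 12.94 in EV replicates 1 to 4. It did not pass over 8 arrays (log2 difference -0.68, limma adjusted p = 0.803). Without EV replicate 1 PTPRC was lower in BORA tumours by 2.07 (SE 0.31, limma adjusted p = 0.0194), the 1 call among the markers. CD68, the other leukocyte marker with means above the negative controls, went the other way, at 0.35 over 8 arrays and 0.38 over 7. CD3E, CD14, CSF1R, AIF1 and ITGAM lay between -0.52 and -0.30 over 8 arrays, with means below the negative controls. For 6 fibroblast markers the summed log2 signal was 51.1 to 53.6 in BORA tumours and 47.4 to 53.0 in EV tumours, and 2 of the 7 leukocyte and 3 of the 6 fibroblast markers exceeded the negative controls in both groups. The fibroblast sum also holds genes that differ in both directions, 2 above 0 and 4 below over 7 arrays. LUM was at 1.14 over 8 arrays (SE 0.90) and 2.07 over 7 (SE 0.53, limma adjusted p = 0.112), where its groups did not overlap. PDGFRA, with means below the negative controls, was lower in every BORA tumour, at -0.35 over 8 arrays (SE 0.15) and -0.39 over 7 (SE 0.17). Human probes may read mouse RNA in part. The part of these cells in the CDK6 and CCND2 values was not tested. In such bulk samples, fewer cells of a type and less RNA per cell cannot be told apart.

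The pattern of CDK6 across the 8 tumours was shared most closely by TCTN1, a gene of the ciliary transition zone. Likeness was measured as the root mean square difference between log2 profiles after each gene was centred on its own mean, among 7366 genes above the negative controls on at least 4 arrays. TCTN1 differed from CDK6 by 0.071, YAP1, a transcriptional coactivator gene of the Hippo pathway, by 0.11, HSPA13 by 0.13, NACC1 by 0.14 and B2M, the light chain of class I molecules, by 0.15. CDK6 itself varied by 0.42 on this measure around its own mean. TCTN1 was at 9.62, 9.70, 10.05 and 9.61 in BORA replicates 1 to 4, against 8.69, 9.18, 8.97 and 8.99 in EV replicates 1 to 4.

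The genes most like E2F1 differed from it by more on the same measure. The measure is not scaled to a gene's own variation, which was larger for E2F1 than for CDK6. E2F1 itself exceeded the negative controls on no array, so it would not pass the filter set for the genes compared with it. Its nearest genes were RNASEH2A, a subunit of ribonuclease H2, at 0.20, PIM2, a kinase gene, at 0.22, PSMB9, an immunoproteasome subunit gene, at 0.22, FIBP at 0.23 and NCEH1 at 0.23, where E2F1 varied by 0.70 around its mean. RNASEH2A was at 9.70, 9.04, 9.08 and 8.84 in BORA replicates 1 to 4, against 6.93, 8.62, 8.58 and 8.85 in EV replicates 1 to 4, with EV replicate 1 far below the rest.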

How the data were processed

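Arrays of 4 BORA and 4 EV tumours were compared. The authors used Affymetrix software (Expression Console, named in the submitters' notes); its normalization and background steps are not given here. The deposited values have a range typical of log2 signals and were read as such, although no label names the base; every fold depends on this. The series text names another array design (Human Gene 1.0 ST) than the row identifiers do. Of 24351 rows, 17709 had 1 symbol and 0 several, all matched to a GRCh38.p14 gene table.

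Each of these 17709 clusters was fitted with limma (R 4.3.3, limma 3.58.1, statmod 1.5.0), BORA minus EV, no covariates, with p-values adjusted by Benjamini-Hochberg and called under 0.05. No batch is named. Members and lists were chosen with earlier results of these data known. Values are given for the 10 regulators, any pathway gene past the threshold, up to 3 genes of each list by smallest p, and the 5 genes most like CDK6 and E2F1. The steps were tested on simulated data. The number of arrays limits the precision. Alternatives were a replicate block, quantile normalization, median centring, trended robust fitting, array weights, a filter on dim clusters, all rows, cluster means, a threshold of 0.1 and leaving out each array.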

Additional observations from a re-analysis of the deposited data

Results flagged for a closer look

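RB1 in BORA replicate 1, at 12.68, lay far from the other 3 BORA tumours (12.46 to 12.50) for the small range of that group: its gap to them made up 0.85 of the group's range, past Dixon's critical value for 4 samples. It was the 1 of 18 groups of 4 values checked that was marked in this way; chance marks about 1 in 20.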

How the results depend on the processing

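Counts of called regulators and of called pathway genes stayed at 0 under all 17 alternatives over 8 arrays and all 16 over 7. The smallest adjusted p of any regulator was 0.0947 over 8 arrays and 0.0954 over 7, both for CDK6 with array quality weights. The CDK6 difference kept its sign in every alternative, at 0.66 to 0.85 (limma adjusted p = 0.0947 to 0.303) over 8 arrays and 0.59 to 0.77 over 7 (0.0954 to 0.211), as did CCND2 (-0.95 to -0.68 and -0.83 to -0.62) and E2F1 (0.58 to 1.16 and 0.40 to 0.73) where tested; both were below the filter on dim clusters. The exact permutation p of CDK6 was at its smallest possible value in every alternative, so it says nothing on stability. With groups of equal size any groups without overlap reach that value. Over 7 arrays, leaving out a further tumour gave differences of 0.62 to 0.77 with exact permutation p = 0.0667 or 0.1, again the smallest such splits allow.

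The median log2 difference of the regulators was 0.11 to 0.49 over 8 arrays and 0.038 to 0.22 over 7 on leaving out each array. It was 0.17 with array weights and 0.19 after quantile normalization over 8 arrays, and over 7 it was 0.030 after quantile normalization, 0.055 after median centring and 0.062 with the replicate block. Over 8 arrays CCND1 was at 0.023 without BORA replicate 1 and 0.045 without EV replicate 3 (range on leaving out each array -0.36 to 0.045), and without EV replicate 1 CDK4 was at -0.022 (range -0.022 to 0.53) and RB1 at 0.019 (range -0.38 to 0.019). Over 7 arrays RB1 turned to -0.032 with the replicate number as a block, -0.084 after quantile normalization, -0.031 after median centring, -0.0029 with array weights, -0.032 without BORA replicate 1 and -0.15 without EV replicate 3 (range -0.15 to 0.13). CDKN1B turned to -0.030 without BORA replicate 2 (range -0.030 to 0.22), and CDK4 to 0.18 without BORA replicate 3 and 0.15 without EV replicate 3 (range -0.14 to 0.18). The cause was not tested. None of these passed a test before or after. Deviations of same-numbered tumours from their group means correlated at -0.11 to 0.071. These values cannot exclude pairing, because EV replicate 1 enters the EV mean and tumours of different number were not compared. With the replicate block over 8 arrays CDK6 was at 0.77 (limma adjusted p = 0.254), the median of the regulators at 0.31, and 0 were called. Signal near background limits CDK6, CCND2, CCNE1, CDKN1B and E2F1.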
